A study of Danio rerio with 8 samples.

Results

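Genes of endothelial cell-cell junctions were followed in kdrl-positive cells sorted from zebrafish embryos at 28 hours post fertilization, in 4 libraries from sf3b1 mutants and 4 from their siblings. The members were the rows of the count table whose Ensembl gene carries the symbol cdh5, pecam1, esama, cldn5a, cldn5b, tjp1a, tjp1b, amotl2a, ctnnd1 or rasip1, with case ignored and a paralogue letter allowed to be missing on either side. This gave 11 Ensembl genes of the 31901 in the table, and every listed symbol found a row. No further agent or treatment is named in the labels for either group, and neither the allele, the siblings' genotype nor the number of embryos per library is given. Whether the sibling embryos include carriers is likewise unstated. kdrl encodes a VEGF receptor of endothelium, and the name of the deposited table points to a green fluorescent reporter of kdrl. sf3b1 encodes a subunit of the U2 snRNP, which recognises the intron branch point in splicing. The comparison asks whether transcripts of the junction genes differ when this splicing factor is mutated.

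Endothelial cells are held together by adherens junctions and tight junctions, which in vessels lie intermingled along the same contacts. VE-cadherin binds its like on the neighbouring cell and is tied to actin through catenins. Claudins and immunoglobulin-type adhesion molecules such as PECAM1 and ESAM seal and hold the contact, and ZO-1 scaffolds them from inside. In the zebrafish embryo some of these genes serve the joining of sprouts and the opening of the vessel lumen.

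The count table lists Ensembl IDs, and the list of gene names used with it gives some genes a zebrafish symbol and others a human one, so members carry the name found there. ESAM (ENSDARG00000077039) stands for esama, AMOTL2 (ENSDARG00000061923) for amotl2a, CTNND1 (ENSDARG00000078233) for ctnnd1 and TJP1 (ENSDARG00000077506) for tjp1a. CLDN5 names ENSDARG00000043716 as well as ENSDARG00000014059, and which of them is cldn5a and which cldn5b is not given in the sources used here. Listed pecam1 matched pecam1a (ENSDARG00000060263) and pecam1b (ENSDARG00000103020). cdh5 is ENSDARG00000075549, tjp1b is ENSDARG00000079374 and rasip1 is ENSDARG00000074829.

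Libraries held 10035886 to 13277963 counts, and a member had 82 to 13657 counts in a library, so all 11 passed the filter on low counts. The labels do not say whether replicates came from separate clutches, and the p-values therefore reflect the spread among these libraries alone, part of which may be technical. SF3B1 itself ranged from 149.6 to 187.9 CPM in the mutants and from 211.5 to 353.9 CPM in siblings, without overlap (CPM are counts relative to library size, with the sizes scaled by TMM). In a principal component analysis mutant replicate 4 and sibling replicate 2 lay apart from the rest of their groups on the second component, and results that change without both are given with that value. 8 endothelial reference genes that are no members (kdrl, KDR, TIE1, tek, FLI1, ERG, EGFL7 and ecscr) were counted in every library. The geometric mean of their CPM ran from 139.3 in mutant replicate 1 to 301.1 in mutant replicate 4 and from 142.6 to 241.5 in siblings. Endothelial transcripts thus varied 2.16-fold among mutant and 1.69-fold among sibling libraries.

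Most junction genes did not pass the test between mutants and siblings. Of the 11 members, 1 passed an adjusted p of 0.05 (9.09%), against 21.3% of the 18289 genes tested, 9.92% higher and 11.4% lower in the mutants (quasi-likelihood test in edgeR, adjusted after Benjamini and Hochberg over all genes tested, as for every adjusted p of a log2 fold change). The member that passed was CLDN5 ENSDARG00000043716, which was lower. An unadjusted p under 0.05 was reached by 5 members. The share of all tested genes at that unadjusted level was not determined, so this count has no background to be read against. The groups did not overlap in 2 members (18.2%), CLDN5 ENSDARG00000043716 and tjp1b, where 26.7% of all tested genes did not overlap. The log2 fold changes of mutant over sibling were positive for 6 members and negative for 5, with a median of 0.11, beside -0.0004 over all genes. Their median size was 0.28, beside 0.58 over all genes. The members were less noisy, with a median coefficient of variation (edgeR) of 0.216 beside 0.385 over all genes, so these sizes are not like for like. Of the 11 95% intervals, 10 lay within a 2-fold change in either direction. In bulk samples, fewer cells of a type and less RNA per cell cannot be told apart.

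**Figure D1:**
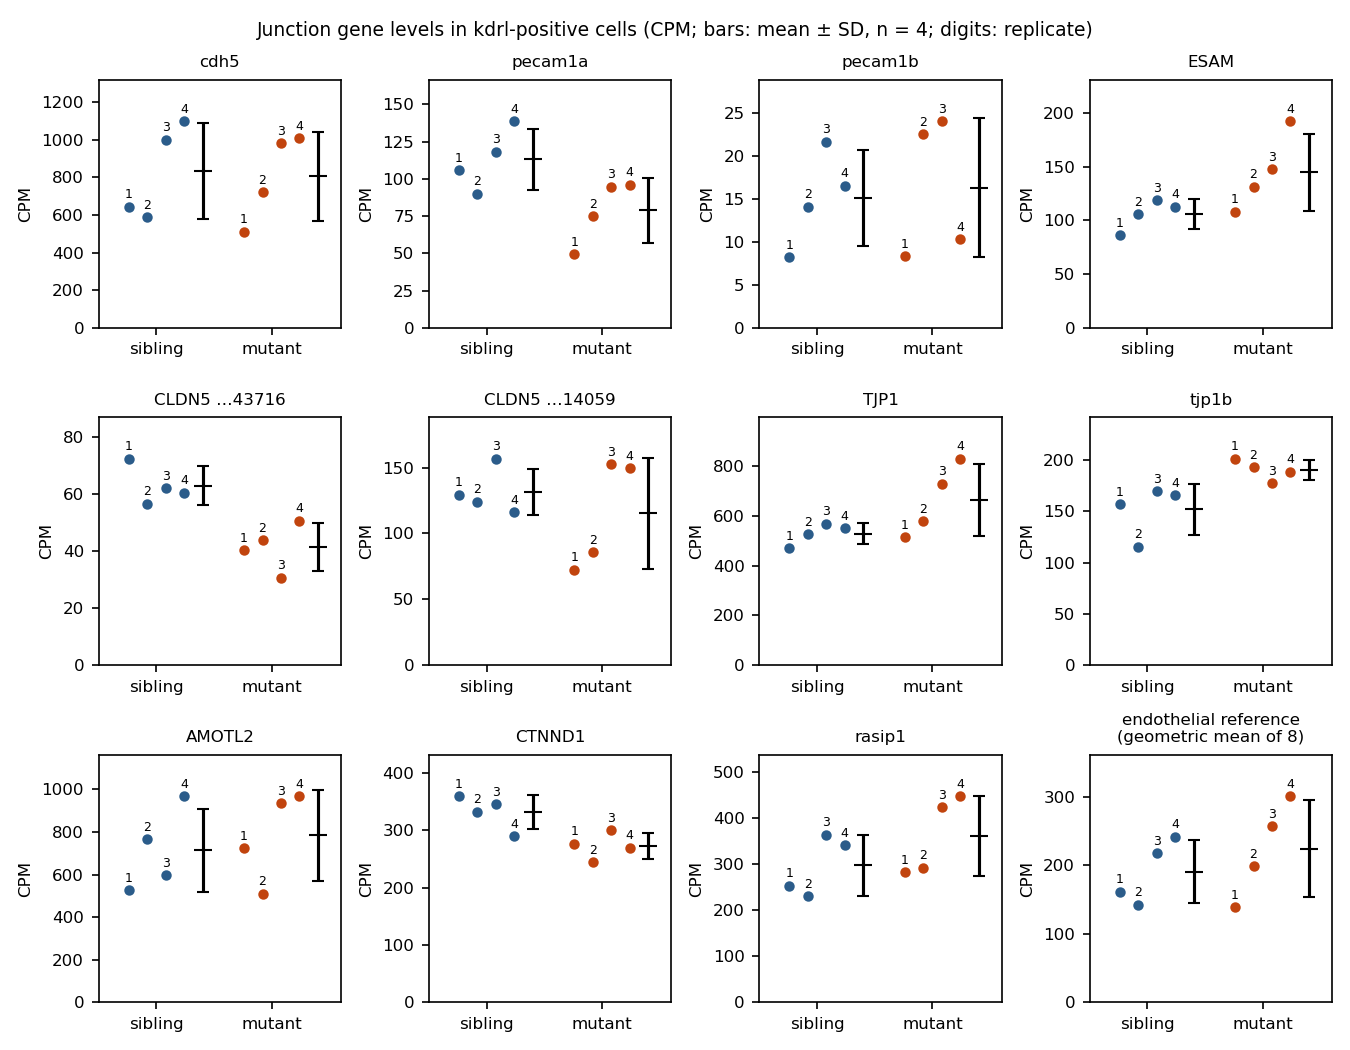
Level of each junction gene in CPM (vertical axes, each from 0) in 4 sibling (blue) and 4 mutant (red) libraries, with the replicate number over each point and black bars for mean ± SD; the last panel shows the geometric mean of 8 endothelial reference genes, and digits after CLDN5 are the end of the Ensembl ID. cdh5 overlaps between groups, CLDN5 ENSDARG00000043716 is lower in all 4 mutant libraries, and mutant replicate 1 is the lowest mutant library for 7 of 11 members.

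cdh5 encodes VE-cadherin, the adhesion receptor of endothelial adherens junctions. Its level was 510.6, 719.5, 979.6 and 1008 CPM in mutant replicates 1 to 4, and 643.8, 588.5, 999.6 and 1097 CPM in sibling replicates 1 to 4. Both groups held low libraries (mutant replicate 1, sibling replicates 1 and 2) and high ones (replicates 3 and 4 of each), and their ranges overlapped. The log2 fold change was -0.05 ± 0.238 (SE, n = 4 per group, adjusted p = 0.919) with a 95% interval of -0.56 to 0.46, and its sign turned with the scaling and with single libraries left out. Without the libraries that stood apart it was -0.32 (adjusted p = 0.389).

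pecam1a encodes a form of PECAM1, an immunoglobulin-family receptor that binds its like across the endothelial contact. Its level was 49.5, 75.1, 94.6 and 96.1 CPM in the mutant libraries and at 105.7, 90.1, 118.2 and 138.6 CPM in the sibling libraries. All mutant libraries but replicates 3 and 4 lay below the whole sibling range, and these exceeded only sibling replicate 2. The log2 fold change was -0.52 ± 0.212 (adjusted p = 0.0971), with a 95% interval of -0.97 to -0.07. It passed when the libraries that stood apart were both left out, at -0.74 (adjusted p = 0.0351), and no single library left out made it pass.

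pecam1b, the paralogue, was counted at 8.36, 22.5, 24.1 and 10.4 CPM in the mutants and at 8.21, 14.1, 21.7 and 16.5 CPM in siblings. Low and high libraries occurred in both groups, and the interval of its log2 fold change was the widest of the members, -0.72 to 0.93 around 0.11 (adjusted p = 0.892), with a sign that turned when single libraries were left out. The ratio of pecam1a to pecam1b within a library differed by -0.59 on the log2 scale between mutants and siblings (exact two-sided permutation test, p = 0.257, adjusted p = 0.557 over 3 paralogue pairs).

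ESAM encodes the endothelial cell-selective adhesion molecule, an immunoglobulin-type protein at tight junctions. Its level was 107.9, 131.2, 147.5 and 192.1 CPM in mutant and 86.0, 105.7, 118.8 and 112.6 CPM in sibling libraries. Mutant replicates 2 to 4 lay above every sibling library and mutant replicate 1 lay within the sibling range. The log2 fold change was 0.45 ± 0.183 (adjusted p = 0.097), the highest of the members. It passed without mutant replicate 1, at 0.57 (adjusted p = 0.0457), and was 0.27 (adjusted p = 0.335) without the libraries that stood apart. The paralogue esamb (ENSDARG00000076639) had 0 counts in mutant replicates 1, 2 and 4, 15 in mutant replicate 3, and 2, 26, 9 and 5 in the siblings, and was too low to be tested.

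Claudin-5, encoded by both CLDN5 rows, is the claudin of endothelial tight junctions in mammals. The row ENSDARG00000043716 stood at 40.3, 43.7, 30.6 and 50.6 CPM in the mutants and at 72.3, 56.6, 62.1 and 60.3 CPM in siblings. The mutant range ended below the lowest sibling library. The level fell by 0.60 ± 0.191 on the log2 scale (adjusted p = 0.0355), to 0.658 of the sibling level with a 95% interval of 0.496 to 0.874. The call rested on most of the libraries: omitting any single library but mutant replicate 4 or sibling replicate 2 ended it, with log2 fold changes of -0.72 to -0.48 over the 8 omissions. Without both of those it passed, at -0.78 (adjusted p = 0.0143). It was also lost under upper-quartile scaling, at -0.54 (adjusted p = 0.0602).

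The other row, ENSDARG00000014059, stood at 72.4, 85.9, 152.8 and 149.7 CPM in the mutants and 129.4, 124.0, 156.8 and 115.9 CPM in siblings. Mutant replicates 1 and 2 lay below all siblings, and mutant replicates 3 and 4 were among the highest libraries. Its log2 fold change was -0.19 ± 0.226 (adjusted p = 0.624; 95% interval -0.67 to 0.29). The ratio of ENSDARG00000043716 to ENSDARG00000014059 ran from 0.20 to 0.557 in mutants and from 0.396 to 0.559 in siblings. The difference of -0.36 on the log2 scale did not pass (exact two-sided permutation test, p = 0.371, adjusted p = 0.557). A difference in response between these rows was therefore not shown.

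TJP1 and tjp1b encode ZO-1 scaffolds, which bind claudins and link them to actin, and which epithelia also use. TJP1 was at 513.9, 577.3, 730.0 and 830.1 CPM in the mutants and 469.3, 527.3, 568.3 and 550.4 CPM in siblings. Mutant replicate 1 lay within the sibling range and the other mutant libraries above it. tjp1b was at 201.5, 193.2, 177.6 and 188.6 CPM in the mutants and 157.1, 115.6, 169.9 and 165.8 CPM in siblings, and the groups did not overlap.

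The log2 fold changes of the ZO-1 genes were of like size, 0.33 ± 0.156 for TJP1 (adjusted p = 0.164) and 0.32 ± 0.15 for tjp1b (adjusted p = 0.15), and neither passed. Within a library the TJP1 to tjp1b ratio was 2.55 to 4.40 in mutants and 2.99 to 4.56 in siblings, a difference of -0.03 on the log2 scale (exact two-sided permutation test, p = 0.943). Libraries differed in how they placed the pair: mutant replicate 1 had the lowest TJP1 and the highest tjp1b of the mutants.

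CTNND1 encodes p120-catenin, which binds cadherins near the membrane and keeps them at the cell surface. It stood at 276.7, 244.7, 301.1 and 269.9 CPM in the mutants and 360.3, 332.6, 345.5 and 289.8 CPM in siblings. Only mutant replicate 3 reached into the sibling range, above sibling replicate 4. The log2 fold change was -0.28 ± 0.132 (adjusted p = 0.153). Its spread within groups was the smallest of the members.

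AMOTL2 encodes an angiomotin-like protein that couples VE-cadherin to actin fibres. Its level was 724.2, 510.1, 936.2 and 969.0 CPM in the mutants and 526.5, 765.0, 597.6 and 966.3 CPM in siblings. Low and high libraries occurred in both groups, and the highest library of each was replicate 4. The log2 fold change was 0.14 ± 0.215 (adjusted p = 0.725; 95% interval -0.32 to 0.60), with a sign that turned under scaling to the endothelial reference genes. Its paralogue amotl2b (ENSDARG00000061948) stood at 154.3 ± 36.0 CPM in the mutants and 139.7 ± 23.3 CPM in siblings (mean ± SD, n = 4; adjusted p = 0.646).

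rasip1 encodes a Ras-interacting protein that binds the GTPase Rap1 and is needed for the vessel lumen to open. It stood at 282.5, 293.0, 424.4 and 448.5 CPM in the mutants and 253.3, 230.3, 364.2 and 342.0 CPM in siblings. Mutant replicates 3 and 4 were above all siblings, and mutant replicates 1 and 2 lay among them. The log2 fold change was 0.28 ± 0.192 (adjusted p = 0.349), and 0.05 (adjusted p = 0.901) without the libraries that stood apart.

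**Figure D2:**
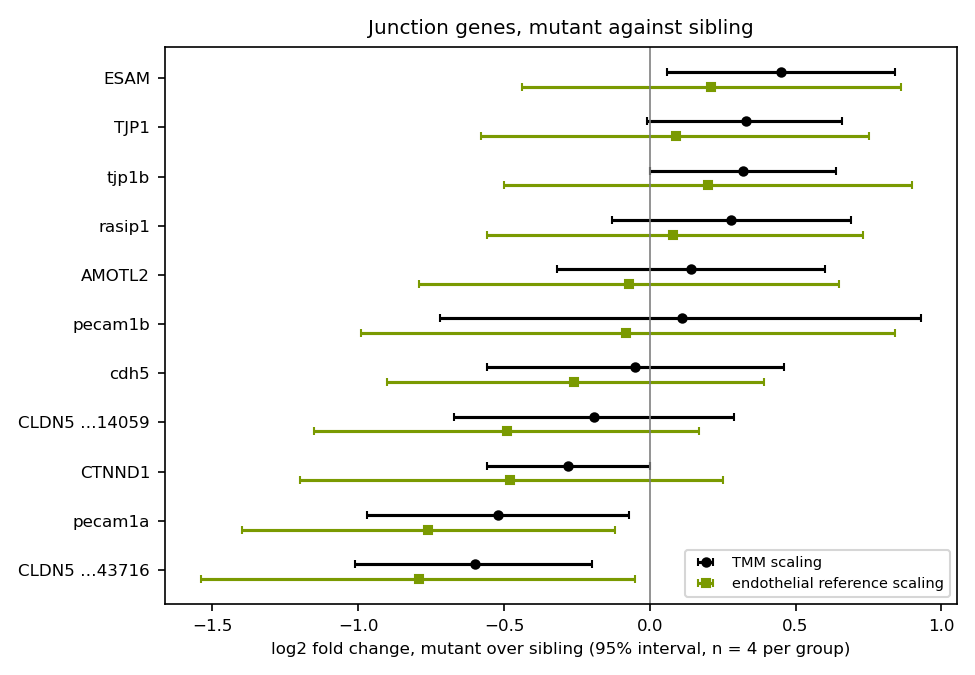
Log2 fold change of mutant over sibling with its 95% interval for each junction gene, under TMM scaling (black circles) and with libraries scaled to the endothelial reference genes (green squares). Under TMM scaling the values run from -0.60 for CLDN5 ENSDARG00000043716 to 0.45 for ESAM, and under reference scaling no member passes.

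The libraries' level of endothelial reference transcripts moved with some members and not with others. cdh5 was low in the libraries where the reference genes were low (mutant replicate 1, sibling replicates 1 and 2) and high where they were high. Its within-group SD was 0.454 on log2 CPM and 0.0893 on the log2 ratio of cdh5 to the reference genes in the same library. For pecam1a these SDs were 0.366 and 0.117, and for rasip1 0.336 and 0.167. ESAM, pecam1b and CLDN5 ENSDARG00000014059 had a smaller SD of the ratio too, which makes 6 of 11.

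For the other 5 members, dividing by the reference genes widened the spread. The SD of CTNND1 went from 0.13 to 0.465, that of CLDN5 ENSDARG00000043716 from 0.241 to 0.479 and that of tjp1b from 0.19 to 0.414. TJP1 (0.238 and 0.25) and AMOTL2 (0.409 and 0.421) changed little. The members that followed the reference genes most closely were thus the adhesion receptors cdh5 and pecam1a and the adaptor rasip1.

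Set against the reference genes of the same library, 2 of 11 members (18.2%), cdh5 and pecam1a, did not overlap between groups, near the 15.5% of all tested genes, and no ratio passed. This ratio was chosen after the spread of the members had been seen. The ratio of cdh5 to the geometric mean of the reference genes was 3.67, 3.62, 3.81 and 3.35 in mutant replicates 1 to 4, and 3.99, 4.13, 4.58 and 4.54 in siblings. The groups did not overlap, and the mean ratio was 0.838 of that in siblings (geometric means), a log2 difference of -0.25 (SD 0.0779 in mutants and 0.0995 in siblings).

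For pecam1a the ratios were 0.355, 0.378, 0.368 and 0.319 in mutants and 0.655, 0.632, 0.542 and 0.574 in siblings. All 4 mutant libraries lay below the siblings, at 0.592 of their level (log2 difference -0.76). Each difference had the smallest p that an exact two-sided permutation test of 4 against 4 libraries can give, 0.0286. Adjustment over the 11 members lets a ratio pass only if several others reach that p too, and neither difference passed (adjusted p = 0.157). Both kept their direction and their separation of the groups when any of the 8 reference genes was left out of the mean. The differences were then -0.31 to -0.22 for cdh5 and -0.81 to -0.72 for pecam1a. Each such mean shared most of its genes with the full one, so the choice of reference genes was not tested by this.

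A ratio within a library shows unequal change and not which side changed. The reference genes had log2 fold changes of -0.15 to 0.50 between mutants and siblings, with a median of 0.26, and none passed (adjusted p = 0.0949 to 0.942). Of these, kdrl passed as higher without mutant replicate 1, at 0.68 (adjusted p = 0.0377). The other members overlapped between groups in this ratio. rasip1 stood at 1.48 to 2.03 times the reference level in mutants and 1.42 to 1.67 times in siblings, and ESAM at 0.573 to 0.775 and 0.466 to 0.742 times.

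With libraries scaled to the reference genes in the fit over all genes, 8.45% of all tested genes passed, 468 higher and 1078 lower, where TMM scaling gave 1814 higher and 2088 lower. That scaling moved the median of all genes to -0.16, and the median of the members to -0.08. No member passed (0 of 11; 2 at an unadjusted p under 0.05), and CLDN5 ENSDARG00000043716 stood at -0.79 (adjusted p = 0.199) and pecam1a at -0.76 (adjusted p = 0.142). How many of all tested genes reached the unadjusted level under reference scaling was not determined. DESeq2 on the genes past the filter called 4722 genes, among them 1 member, also CLDN5 ENSDARG00000043716.

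**Figure D3:**
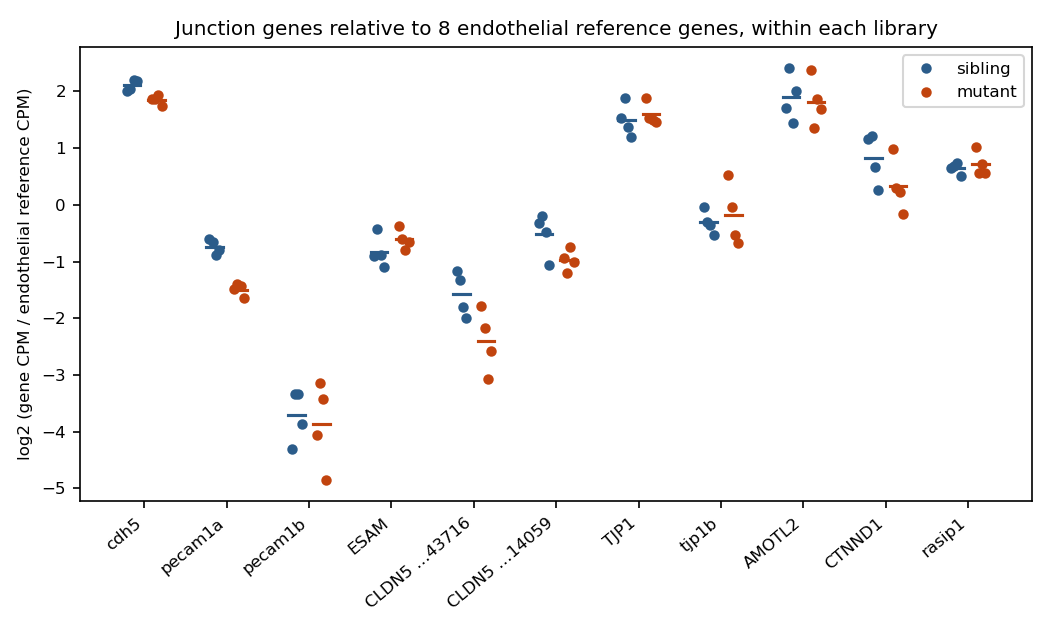
Log2 of each junction gene's CPM over the geometric mean CPM of the 8 endothelial reference genes in the same library (vertical axis), for siblings (blue) and mutants (red), with short lines at group means. pecam1a and cdh5 do not overlap between groups (log2 differences of -0.76 and -0.25), while the other members do. These are 2 of 11 members, beside 15.5% of all tested genes without overlap, and no ratio passed.

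Relative to cdh5 alone, no ratio passed, and 2 of 10, those of pecam1a and rasip1, did not overlap between groups, beside 13.3% of all other tested genes. The pecam1a to cdh5 ratio was 0.0953 to 0.104 in mutants and 0.118 to 0.164 in siblings, without overlap (log2 difference -0.50). The rasip1 to cdh5 ratio was 0.407 to 0.553 in mutants and 0.312 to 0.393 in siblings, also without overlap (log2 difference 0.33). Both gave the smallest possible p of 0.0286 in the exact two-sided permutation test and an adjusted p of 0.143 over the 10 ratios. Neither passed, but at that smallest p a ratio can pass the adjustment only if several others reach it too. The ESAM to cdh5 ratio differed by 0.48 on the log2 scale (exact permutation p = 0.0571, adjusted p = 0.19).

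Of 22 tested genes for partners of cadherins and catenins, 1 rose, 6 fell (27.3%, beside 11.4% of all genes) and 15 did not pass, with a median log2 fold change of -0.21. CDH2 (ENSDARG00000018693), which encodes N-cadherin, lay between 209.7 and 305.4 CPM in the mutants and between 697.8 and 968.8 CPM in siblings, and fell, with a log2 fold change of -1.73 ± 0.157 (adjusted p = 4.92e-06). VASP (ENSDARG00000099690), an actin regulator gene, fell by 2.93 ± 0.467 and the actinin gene ACTN1 (ENSDARG00000007219) by 0.65 ± 0.146 on the log2 scale. The other genes that passed, named after their values were seen, were ZYX (ENSDARG00000075733, -0.74), PLEKHA7 (ENSDARG00000062220, -1.12) and CTNNA2 (ENSDARG00000024785, -1.65), which fell, and nectin3b (1.37), which rose. VASP averaged 3.52 and CTNNA2 5.14 CPM in the mutants, beside 26.8 and 16.2 CPM in siblings. Among related rows, also named after their values were seen, vaspb averaged 187.7 CPM in the mutants and 185.0 CPM in siblings (0.02). ctnna1 averaged 267.4 and 257.4 CPM (0.05), and PLEKHA7 ENSDARG00000060813 stood at 0.46. None of these related rows passed. The call of nectin3b was lost without mutant replicate 1 or 2, that of PLEKHA7 without mutant replicate 2 or sibling replicate 1, and that of CTNNA2 on leaving out 4 of the single libraries. That of ZYX was lost without both libraries that stood apart, at -0.53 (adjusted p = 0.0778). CTNNB1 (ENSDARG00000014571), whose product beta-catenin binds the tail of VE-cadherin, stood at 528.8 ± 25.0 CPM in the mutants and 449.6 ± 75.2 CPM in siblings (adjusted p = 0.282). The related row ctnnb2, named after its values were seen, went the other way without passing. It averaged 288.2 CPM in the mutants and 384.8 CPM in siblings (-0.42, adjusted p = 0.05003).

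N-cadherin is also a neural and mesenchymal protein. The summed level of the neural marker list was 530.8 to 559.2 CPM in the mutants and 1106 to 1653 CPM in siblings. Of 17 tested neural markers 6 fell (35.3%, beside 11.4% of all genes) and 11 did not pass. For neural crest and mesenchyme the sums were 586.7 to 694.2 and 1404 to 2253 CPM, and 8 of 17 fell (47.1%) and 9 did not pass. 1 of the neural rows was at 0 in all libraries. Their part in the fall of CDH2 was not tested.

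Among 28 tested tight junction and JAM genes there were 2 that rose and 3 that fell, and 23 did not pass (median log2 fold change 0.0031). The passing share of 17.9% lay near the 21.3% of all genes. JAM3 (ENSDARG00000061794), for a junctional adhesion molecule, rose by 0.70 ± 0.195, and the polarity kinase gene PRKCZ (ENSDARG00000043332) rose 2.83-fold (95% interval 1.42 to 5.62). The scaffold gene MAGI1 (ENSDARG00000070145) fell by 0.86 ± 0.19 on the log2 scale. A second row of that name, MAGI1 ENSDARG00000003169, fell by 0.50 ± 0.158 and was named after its values were seen. Its call was not examined with libraries left out or under other scalings. The calls of JAM3 and PRKCZ were lost on leaving out 4 and 6 of the single libraries, and without both libraries that stood apart, at 0.45 (adjusted p = 0.123) and 1.14 (adjusted p = 0.099). On such omissions at most 3 genes of the list rose and 1 to 4 fell, and without both libraries that stood apart 1 rose and 5 fell.

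Of the other claudin genes 18 were tested, and 2 rose and 1 fell, a passing share of 16.7%, beside 21.3% of all genes. cldna measured 22.3 ± 11.9 CPM in the mutants and 2.61 ± 0.271 CPM in siblings, and it rose by 3.09 ± 0.412 on the log2 scale (adjusted p = 0.000109). CLDN12 (ENSDARG00000003927) rose by 0.70 ± 0.174, and CLDN11 (ENSDARG00000020031) fell by 3.87 ± 1.08 on the log2 scale, from a low level of 1.69 to 21.1 CPM in siblings. Without sibling replicate 2, the highest, its log2 fold change was -2.71 (adjusted p = 0.168), and its call was also lost without mutant replicate 3, at -3.54, and without both libraries that stood apart, at -2.30. A second CLDN11 row (ENSDARG00000030723), named after its values were seen, averaged 12.57 CPM in the mutants and 13.65 CPM in siblings. That row did not pass (-0.12). Epidermal and epithelial markers, many of which are keratin and claudin genes, summed to 5350 to 12320 CPM in the mutants and 5443 to 13300 CPM in siblings. Of these markers 1 of 18 fell (5.56%, beside 11.4% of all genes). The marker that fell was krt18a.1. Transcripts of such cells were thus counted in both groups, and their part in the claudin values was not tested.

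Among 20 tested angiomotin and Hippo genes, 2 rose and 2 fell, a share near the 21.3% of all genes. The transcription factor gene TEAD3 (ENSDARG00000074321) fell by 1.05 ± 0.175 and TEAD1 (ENSDARG00000059483) rose by 0.59 ± 0.162 on the log2 scale, and the kinase gene STK3 (ENSDARG00000011312) rose by 0.62 ± 0.174. Related rows, named after their values were seen, went the other way without passing. They were a second TEAD3 row (ENSDARG00000063649, 0.21, adjusted p = 0.568) and tead1a (-0.53, adjusted p = 0.0576). The call of STK3 was lost without mutant replicate 1 and without replicate 1 or 3 of the siblings, and that of TEAD1 without both libraries that stood apart, at 0.44 (adjusted p = 0.0739). The other gene that fell, named after its values were seen, was ccn2b, close to the floor at 0.0799 CPM in the mutants and 2.27 CPM in siblings. Its log2 fold change was -4.63 ± 1.5 (adjusted p = 0.03945), and its call was not examined with libraries left out. CCN2 (ENSDARG00000042934), also named after its values were seen, averaged 137.7 and 152.9 CPM and did not pass (-0.15).

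Rap1 is a GTPase that strengthens cadherin contacts and binds the product of rasip1. rap1aa, a gene for it, measured 68.5 ± 8.19 CPM in the mutants and 35.0 ± 1.13 CPM in siblings and rose by 0.97 ± 0.17 on the log2 scale (adjusted p = 0.000891). TIAM1 (ENSDARG00000078430), for an activator of Rac, measured 168.8 ± 23.4 and 85.0 ± 15.9 CPM and rose by 0.99 ± 0.17. TRIO (ENSDARG00000019426), for another exchange factor, fell by 0.64 ± 0.134 on the log2 scale.

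Further genes around Rap1 were named after their values were seen. rap1ab (1.39 ± 0.332) and rap1b (0.52 ± 0.175) rose, and the call of rap1b was lost on leaving out 5 of the single libraries, and without both that stood apart, at 0.53 (adjusted p = 0.0645). RAPGEF6, for an activator of Rap1, fell by 0.93 ± 0.209, and its call was not examined with libraries left out or under other scalings. RADIL (2.11 ± 0.918, adjusted p = 0.123, but 0.0367 without sibling replicate 2) and heg1 (-0.03 ± 0.217, adjusted p = 0.938, with a sign that turned with the scaling) did not pass.

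Of 19 kinase and phosphatase genes that act at endothelial junctions, 2 fell (10.5%, beside 11.4% of all genes) and 17 did not pass. PTPN6 (ENSDARG00000089043), whose product SHP-1 is mainly a phosphatase of blood cells, fell by 1.18 ± 0.322 on the log2 scale, and pak2b, a kinase gene, by 0.68 ± 0.194. The call of PTPN6 was lost without mutant replicate 2, and that of pak2b without mutant replicate 3, sibling replicate 1 or both libraries that stood apart (-0.59, adjusted p = 0.0731). Leukocyte markers summed to 163.0 to 371.8 CPM in the mutants and 808.1 to 1070 CPM in siblings. Of these markers 9 of 13 fell (69.2%, beside 11.4% of all genes), and 1 row was at 0 in all libraries. Their part in the fall of PTPN6 was not tested. Leaving out sibling replicate 1 lowered the number of passing genes over all 6 lists from 32 to 20. Of 24 genes outside the members that passed and were examined under the other settings, 18 lost their call under reference scaling. Among them was SF3B1 itself (-1.02, adjusted p = 0.0555), whose SE was 0.33 under that scaling and 0.166 under TMM. Others were rap1aa (0.82, adjusted p = 0.191), TIAM1 (0.83, adjusted p = 0.12), TRIO (-0.85, adjusted p = 0.127), rap1ab (1.22, adjusted p = 0.0689), TEAD1 (0.40, adjusted p = 0.535) and ZYX (-0.86, adjusted p = 0.199). The 6 that kept their call were CDH2, VASP, cldna, CLDN11, TEAD3 and PTPN6.

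**Figure D4:**
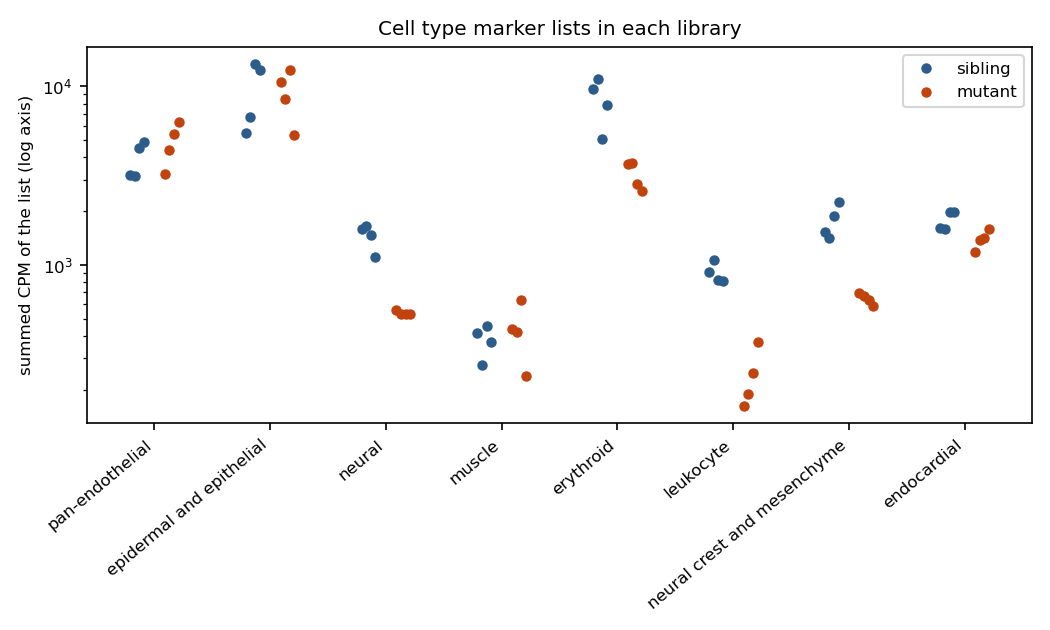
Summed CPM of each cell type marker list (log axis) in 4 sibling (blue) and 4 mutant (red) libraries. Pan-endothelial sums overlap at 3238 to 6292 CPM in the mutants and 3131 to 4878 CPM in siblings, while neural, erythroid, leukocyte and neural crest and mesenchyme sums do not overlap and are lower in mutants. Endocardial sums are also lower without overlap but nearly meet, with a mutant maximum of 1586 CPM and a sibling minimum of 1593 CPM.

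Of 18 tested pan-endothelial markers outside the members, 5 rose (27.8%, beside 9.92% of all genes), namely mmrn2a, mmrn2b, flt1, clec14a and plvapb. Further, 1 fell, sox18 (5.56%, beside 11.4% of all genes), and 12 did not pass. The 18 include the 8 endothelial reference genes, none of which passed, so every marker that passed lay outside the reference. Erythroid markers summed to 2595 to 3729 CPM in the mutants and 5080 to 10990 CPM in siblings, with 8 of 12 lower (66.7%). Muscle markers summed to 237.9 to 633.0 and 274.2 to 453.1 CPM, with 1 of 13 higher (TNNT3) and 1 lower (TNNT2), 7.69% each. Endocardial markers summed to 1175 to 1586 and 1593 to 1979 CPM. Of these, 3 of 12 were higher (TBX20 and both HAPLN1 rows) and 3 lower (klf2a and both FN1 rows), 25.0% each. The part of these differences in the levels of the junction genes was not tested.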

How the data were processed

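Total RNA of kdrl-positive cells was depleted of ribosomal RNA and made into stranded libraries, per the labels' protocols. Trim Galore, STAR 2.4.2a, Picard, Cufflinks 2.2.1 and the build GRCz10 are named in the submitters' processing notes. Counting tool, strand setting and annotation were not given in the sources used here. Whole-number counts per Ensembl gene make up the deposited table, and nothing in the values points to a normalization by the authors. Unspliced RNA may be among the counts, and without a known strand setting reads of overlapping genes cannot be told apart. No molecular identifiers are named. Symbols from a separate list of gene names were found for 29178 of 31901 genes. No genome positions or sequences are given, since the gene table used for names describes another assembly.

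Counts were tested with edgeR 4.0.16 in R 4.3.3: TMM, filterByExpr (smallest count 10, smallest total 15), glmQLFit with robust estimation and glmQLFTest, group as the only factor, and Benjamini-Hochberg adjustment over 18289 genes with a threshold of 0.05. The SE is the log2 fold change divided by the square root of F, and 95% intervals use its t distribution. Ratios (fold of 1 gene's count over another's within a library, pseudocount 0.5; CPM for the reference genes) were compared by exact two-sided permutation tests over 70 assignments in Python 3.11.15. The smallest p of these tests lets a ratio pass its adjustment only if others of its set reach it too. DESeq2 1.42.0 was an alternative. The script was tested on simulated data. Pairs of libraries of a group differed by 13.99 to 47.24 in chi-square per degree of freedom, so none agreed within sampling noise.

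The members and lists were chosen with earlier results of these data known. Symbols of the lists were matched with case ignored, otherwise without the paralogue letter, and members were left out of the lists. The text names every member, from each junction-related list up to 3 genes of smallest p that passed, the relatives or partners amotl2b, esamb and CTNNB1, and SF3B1 and kdrl as checks; genes named after their values were seen are marked. Some genes and 1 list's counts are not reported here. kdrl ranged from 689.8 to 1625 CPM in mutants and from 627.6 to 1064 CPM in siblings. The alternatives were other scalings, no filter, no robust estimation, DESeq2, a replicate block, and libraries left out.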

Additional observations from a re-analysis of the deposited data

Results flagged for a closer look

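Of 136 groups of 4 libraries examined, 4 held a library far from the other 3 (gap to the nearest library over the range of the group above 0.829). Chance flags about 1 in 20 groups. In amotl2b (ENSDARG00000061948) mutant replicate 1 stood at 207.9 CPM and the other mutants at 133.2 to 142.3 CPM (gap over range 0.878). In PTPN6 (ENSDARG00000089043) mutant replicate 4 stood at 30.6 CPM and the other mutants at 11.2 to 12.5 CPM (0.932). In CLDN12 (ENSDARG00000003927) mutant replicate 3 stood at 85.0 CPM and the others at 66.0 to 68.1 CPM (0.892). The summed neural markers were 559.2 CPM in mutant replicate 1 and 530.8 to 533.1 CPM in the other mutants (0.918), a gap that is small beside the sibling sums of 1106 CPM and above.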

How the results depend on the processing

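Of 187 log2 fold changes of members under the alternatives, 167 kept their direction and their side of the threshold, 9 turned in sign, 3 newly passed and 8 no longer passed. Scaling to the endothelial reference genes gave 1546 changed genes in place of 3902, 0 members and 7 of the junction-related list genes in place of 32. Upper-quartile scaling gave 0 members and 3868 changed genes. Without mutant replicate 4 and sibling replicate 2 there were 2 members (CLDN5 ENSDARG00000043716 and pecam1a), among 4054 changed genes. With single libraries left out, 0 to 1 members and 20 to 32 list genes passed, beside 2921 to 3897 of all genes. cdh5 turned to 0.02 under upper-quartile scaling and ran from -0.20 to 0.12 over single omissions (0.12, 0.05 and 0.11 without mutant replicate 1, sibling replicate 3 and sibling replicate 4). pecam1b turned to -0.08 under reference scaling and to -0.09, -0.14 and -0.10 without mutant replicates 2 and 3 and sibling replicate 1 (-0.14 to 0.33 over single omissions), and AMOTL2 to -0.07 under reference scaling. amotl2b was -0.03 without mutant replicate 1 (-0.03 to 0.22). heg1 was 0.04 under upper-quartile scaling and 0.07 and 0.11 without mutant replicate 1 and sibling replicate 4 (-0.17 to 0.11). The cause was not tested in any of these.

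Over all tested genes the replicate numbers gave no sign of pairing, which does not exclude it. Deviations of same-numbered mutants and siblings from their group means correlated at 0.0162, -0.0349, 0.0534 and -0.0393. Not every library correlated best with its own number. The endothelial reference level was 139.3, 198.5, 257.3 and 301.1 CPM in mutant replicates 1 to 4. In sibling replicates 1 to 4 it was 161.3, 142.6, 218.0 and 241.5 CPM. Replicates 3 and 4 thus had the higher reference level in mutants and in siblings alike, as they had for cdh5 and rasip1. With the replicate block 3782 genes and 2 members passed, CLDN5 ENSDARG00000043716 and pecam1a (log2 fold change -0.55, adjusted p = 0.0437), and so did kdrl (0.47, adjusted p = 0.0172). Depth was at least 82 counts for a member in each library.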
